A study of Mus musculus with 5 samples.

Results

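This account follows 10 stress genes through 5 mouse heart sections. Of these, 5 belong to the endoplasmic reticulum (ER), namely Hspa5, Hsp90b1, Calr, Pdia4 and Xbp1, and 5 to the integrated stress response, namely Atf4, Ddit3, Asns, Psat1 and Nupr1. They were taken by symbol, with no measured value in the rule, but were chosen with earlier results of these data known. All 10 were among the 13711 genes that the expression tables of all 5 sections shared. The sections came from wild-type C57BL/6 mice that had been operated on 1 day after birth and were measured on Visium slides, on which a lattice of barcoded spots takes up mRNA. For myocardial infarction (MI) the left anterior descending artery of the heart had been tied off, and sham animals had surgery without infarction. A section was 10 µm thick and was cut 200 µm under the suture, or at an equivalent depth in a sham heart. Day 3 after surgery had 1 sham and 1 MI section, and day 7 had 1 sham section and a pair of MI sections (replicates 1 and 2). The study describes the MI day 7 replicates as biologically independent, which the labels do not state, and every other group is 1 section.

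The ER folds secreted and membrane proteins. When unfolded proteins build up, the sensors ATF6, IRE1 and PERK start the unfolded protein response, which raises chaperones and, through IRE1, splices Xbp1 mRNA into the form that codes for an active transcription factor. The integrated stress response starts where PERK or a related kinase (GCN2, PKR or HRI) phosphorylates the initiation factor eIF2α. General translation then falls while Atf4 mRNA is translated more, and ATF4 in turn raises genes for amino acid synthesis and transport. Much of this control acts on splicing and translation, which the gene counts analysed here do not read. In the heart, fibroblasts that secrete matrix load the ER heavily, and cardiomyocytes carry a related store of calcium in the sarcoplasmic reticulum.

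Promoter elements of these responses have known letters, so the stretches of the members that hold one are shown here to place the genes in their pathways. The ER stress response element, which ATF6 is known to bind, was searched as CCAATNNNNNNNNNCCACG, and the C/EBP-ATF response element, which ATF4 is known to bind, as TGATGNAA. Both strands of the 250 bases before each RefSeq start (GRCm38.p6) were searched in 11 promoter entries, which covered all 10 members. Capitals mark the motif, 5 bases flank it on each side, and each line reads 5′ to 3′ on the strand of the gene, so a motif on the opposite strand reads as its reverse complement.
Hspa5, chr2:34772020-34772048, plus strand, motif on the strand of the gene: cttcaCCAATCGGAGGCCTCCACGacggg
Hsp90b1, chr10:86705633-86705661, minus strand, motif on the strand of the gene: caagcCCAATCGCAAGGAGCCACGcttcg
Hsp90b1, chr10:86705528-86705556, minus strand, motif on the opposite strand: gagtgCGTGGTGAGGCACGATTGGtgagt
Calr, chr8:84847070-84847098, minus strand, motif on the opposite strand: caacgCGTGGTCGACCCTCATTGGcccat
Asns, chr6:7693220-7693237, minus strand, motif on the strand of the gene: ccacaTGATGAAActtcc
Nupr1, chr7:126625568-126625585, minus strand, motif on the opposite strand: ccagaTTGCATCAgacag

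The ER element was present in Hspa5, Hsp90b1 and Calr, 3 of the 10 members, and in 37 of 32851 promoter entries of the genome (0.113%). In Hspa5 it lay 65 to 47 bases before the start and in Calr 162 to 144 bases before it, while Hsp90b1 held it 212 to 194 and again 107 to 89 bases before its start. The ATF4 element was present in Asns, 23 to 16 bases before the start, and in Nupr1, 110 to 103 bases before it, against 1134 promoter entries of the genome (3.45%). A match shows only that the letters stand there. The windows of Hsp90b1 and Calr lay upstream of the GENCODE vM21 gene, whereas those of Hspa5, Asns and Nupr1 lay inside it, because that annotation places the gene's start further upstream than RefSeq does. The GENCODE genes are Hspa5 at chr2:34771970-34777547, Hsp90b1 at chr10:86690209-86705509, Calr at chr8:84841850-84846934, Pdia4 at chr6:47796141-47813430 and Xbp1 at chr11:5520659-5525893. The others are Atf4 at chr15:80255184-80257541, Ddit3 at chr10:127290774-127296288, Asns at chr6:7675169-7693254, Psat1 at chr19:15904678-15947337 and Nupr1 at chr7:126623249-126630861, all in GRCm38 and all protein-coding. Inside Ddit3 the annotation holds a second model of the same symbol (chr10:127290829-127293753), which had 0 UMIs in the raw table, so Ddit3 values are uncertain to the extent that reads were shared between the models.

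The 5 sections held 3364 spots, between 376 and 960 each, and between 11396022 and 37492530 UMIs (unique molecular identifiers, here raw counts) per section. A spot usually covers more than 1 cell. Values are given as CPM, in which the values of each spot were scaled to sum to 1000000, and were averaged over the spots of a section. The tables of 4 sections held counts that had already been corrected for depth, and that of sham day 3 held raw counts. At day 3 the operation thus cannot be told apart from the type of table. Sham day 3 also enters the comparisons across both days, and the part of table type was not tested. The cardiomyocyte marker Tnnt2 was at 4749 to 5295 CPM in all 5 sections, so heart muscle was present in each. MI day 7 replicate 1 stood apart by depth, with a median of 53940 UMIs per spot against 20842.5 to 34837.5 in the others, and by mitochondrial transcripts, 24.7% of its values against 13.8 to 15.8%. In the MI sections, 18 spots lay off the tissue by more than 2 spot spacings, all with under 5000 UMIs, and each comparison was repeated without spots under 5000 UMIs. Because arrays share their barcodes, 897 spot barcodes occurred in more than 1 section.

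The chaperones were among the well-detected genes of every section, and the amino acid genes and Nupr1 were sparse. Hspa5, the ER chaperone BiP, which holds the stress sensors inactive, stood at 385 CPM in sham day 3, 261 CPM in sham day 7, 312 CPM in MI day 3, and 268 and 254 CPM in MI day 7 replicates 1 and 2. Hsp90b1, the ER member of the HSP90 family (GRP94), stood at 292 CPM in sham day 3, 206 CPM in sham day 7, 268 CPM in MI day 3, and 232 and 231 CPM in MI day 7 replicates 1 and 2. Calr, a calcium-binding lectin chaperone that folds glycoproteins, stood at 337 CPM in sham day 3, 209 CPM in sham day 7, 287 CPM in MI day 3, and 235 and 261 CPM in MI day 7 replicates 1 and 2. For these chaperones both day 3 sections lay above every day 7 section, and MI and sham overlapped. Pdia4, a disulfide isomerase of the ER, stood at 31.1 CPM in sham day 3, 18.1 CPM in sham day 7, 29.1 CPM in MI day 3, and 16.3 and 20.1 CPM in MI day 7 replicates 1 and 2. Xbp1, the transcription factor that IRE1 activates by splicing, stood at 50.5 CPM in sham day 3, 34.5 CPM in sham day 7, 42.9 CPM in MI day 3, and 38.7 and 44.7 CPM in MI day 7 replicates 1 and 2. Pdia4 again had both day 3 sections above every day 7 section, and Xbp1 did not, since MI day 7 replicate 2 lay above MI day 3.

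Among the genes of the integrated stress response, Atf4, its central transcription factor, stood at 96.4 CPM in sham day 3, 115 CPM in sham day 7, 101 CPM in MI day 3, and 90.5 and 101 CPM in MI day 7 replicates 1 and 2. Ddit3, the transcription factor CHOP of prolonged stress, stood at 24.1 CPM in sham day 3, 33.5 CPM in sham day 7, 24.3 CPM in MI day 3, and 25.5 and 32.8 CPM in MI day 7 replicates 1 and 2. Neither gene separated MI from sham, and sham day 7 was the highest section for both. Asns, which makes asparagine, stood at 3.698 CPM in sham day 3, 3.22 CPM in sham day 7, 6.44 CPM in MI day 3, and 3.03 and 5.596 CPM in MI day 7 replicates 1 and 2. Psat1, the aminotransferase of serine synthesis, stood at 17.3 CPM in sham day 3, 13.2 CPM in sham day 7, 23.8 CPM in MI day 3, and 8.503 and 16.7 CPM in MI day 7 replicates 1 and 2. In both genes MI day 3 was the highest section and MI day 7 replicate 1 the lowest. Nupr1, a small stress-induced chromatin regulator, stood at 3.63 CPM in sham day 3, 2.79 CPM in sham day 7, 10.99 CPM in MI day 3, and 8.91 and 17.4 CPM in MI day 7 replicates 1 and 2. Nupr1 was the only member with every MI section above both sham sections, an order that 6.84% of the 12933 genes tested also had.

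The precision of these values follows the counts behind them. In the raw table of sham day 3, Hspa5 had 4343 UMIs (95% Poisson interval 4215 to 4474) and was seen in 99.8% of spots, while Nupr1 had 31 UMIs (21.1 to 44.0) and Asns 43 (31.1 to 57.9). These intervals cover counting error only. Nupr1 was above 0 in 4.78% and 6.04% of the spots of the sham sections of days 3 and 7, and in 25.3%, 34.6% and 20.7% of the spots of MI day 3 and of MI day 7 replicates 1 and 2. For Asns these shares were 6.99% in sham day 3, 6.98% in sham day 7, 19.4% in MI day 3, and 14.7% and 9.61% in MI day 7 replicates 1 and 2. Such shares depend on depth, which was highest in MI day 7 replicate 1.

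**Figure D1:**
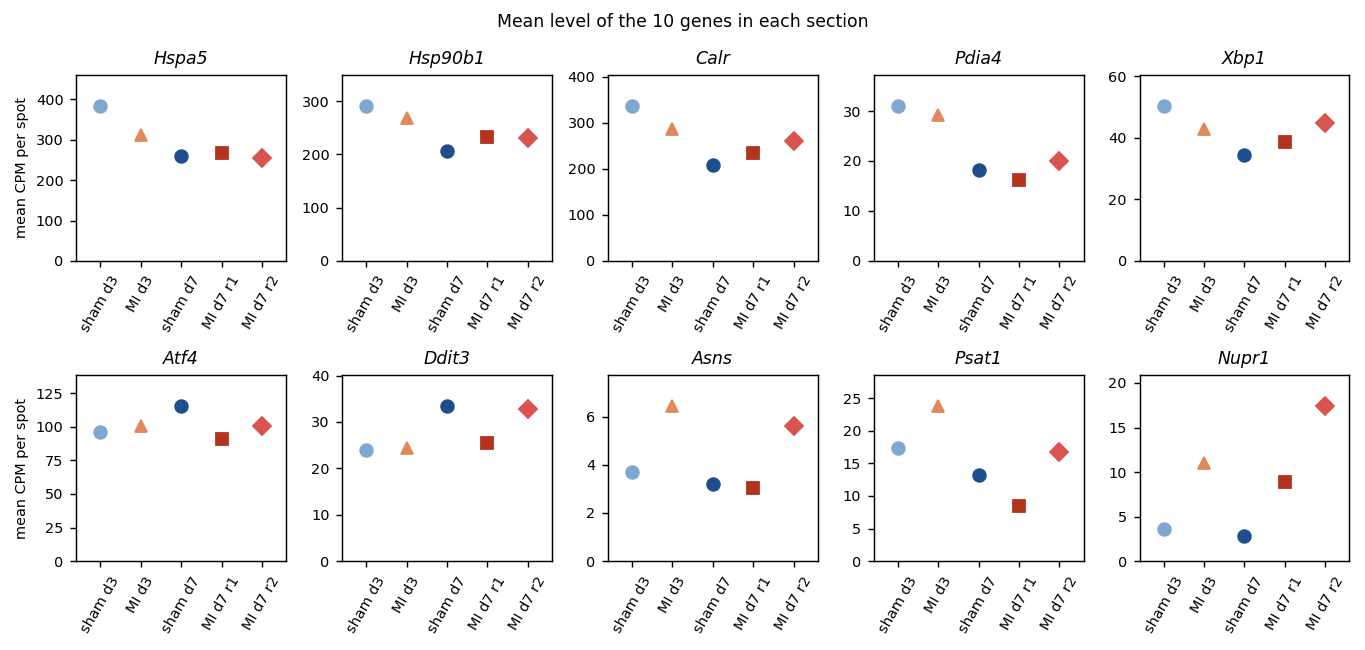
Mean CPM per spot (vertical axes, linear from 0) of the 10 members in each of the 5 sections (1 point a section, 1 panel a gene). Hspa5, Hsp90b1, Calr and Pdia4 are higher in both day 3 sections than at day 7, and Nupr1 lies between 8.91 and 17.4 CPM in the MI sections against 2.79 and 3.63 CPM in sham.

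The comparison of MI with sham asks what infarction changed in the whole section. Over both days, with day as a covariate, no member passed the test (limma, adjusted over 12933 genes). The background was low too, as 1 gene was higher (0.00773%) and 0 lower (0.0%), counts that ran from 0 and 0 without MI day 7 replicate 2 and 81 and 6 without replicate 1 to 319 and 47 without sham day 7. Without adjustment, p was under 0.05 for 692 genes with higher and 356 with lower values in MI. The members' log2 differences ran from −0.13 to 1.64 with a median of 0.04, against −0.01 over all genes tested, and Nupr1 was the only member under an unadjusted p of 0.05. Nupr1 had a log2 difference of 1.64 ± 0.28 (SE, 3 MI against 2 sham sections), with an adjusted p of 0.366. Leaving out MI day 7 replicate 1 gave 1.83 (adjusted p = 0.0491) and leaving out replicate 2 gave 1.38 (adjusted p = 0.238). Without either day 3 section the fit is the day 7 comparison (1.83), and without sham day 7 it is the ratio of 1 section to 1 at day 3 (1.37). In these fits the spread came only from the MI day 7 pair, so their passing (adjusted p of 0.00303 to 0.0293) is no separate support. Markers of other cell types moved with MI too. Over whole sections, summed immune markers were 103 and 112 CPM in sham days 3 and 7, 949.7 CPM in MI day 3, and 170.5 and 263 CPM in MI day 7 replicates 1 and 2. Summed fibroblast markers were 4325 and 4685 CPM in sham and 5884, 5433 and 7332.5 CPM in MI, and blood markers 4411 and 6901 CPM in sham and 11384.5, 8567 and 10746 CPM in MI, in the same order. Each sum was higher in every MI section than in both sham sections, as Nupr1 was, and their part in the Nupr1 level was not tested at day 3, at day 7 or across days. The chaperones stayed near 0, with −0.13 ± 0.12 for Hspa5, 0.04 ± 0.12 for Hsp90b1 and 0.04 ± 0.15 for Calr. Across a whole section, fewer cells of a type and less RNA per cell cannot be told apart.

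At day 7, Nupr1 was higher in MI, with a log2 difference of 1.83 ± 0.29 (2 sections against 1, adjusted p = 0.00967). In that comparison 24 genes were higher (0.186%) and 6 lower (0.0464%), and no other member passed, with differences from −0.27 to 0.29. The spread of this test came only from the pair of MI day 7 sections, and the lone sham section was assumed to vary alike. The Nupr1 call was lost with scaling without mitochondrial and haemoglobin genes (1.92, adjusted p = 0.426) and with median-of-ratios scaling (1.87, adjusted p = 0.403), where the counts over all genes were also 0 and 0, while summed values gave 62 and 25. At day 3, with 1 section per group and no test, the log2 ratio of Nupr1 was 1.37, and Nupr1 was the only member past 1 in size. Of all genes, 3.51% were above 1 and 0.518% below −1. These ratios set the corrected counts of MI day 3 against the raw counts of sham day 3. The 5 ER genes had ratios of −0.30 to −0.09 at day 3 and the 5 genes of the integrated stress response 0.01 to 1.37, with a median of 0.03 over all genes, and with median-of-ratios scaling 3 members rather than 5 were above 0.

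Other genes of these pathways gave the same count. Across days, 0 of the 19 ER folding genes, 16 genes of ER-associated degradation and translocation, 8 sensors of the unfolded protein response, 17 further genes of the integrated stress response, 15 of amino acid and serine synthesis, 12 tRNA synthetases and 10 cytosolic and mitochondrial heat shock genes passed, with adjusted p of 0.432 or more, and at day 7 the count was 0 as well, with 0.804 or more. Among genes with a mean of at least 5 CPM, the differences farthest from 0 across days were 0.45 for the ER chaperone Hyou1, 0.37 for the degradation lectin Os9, 0.33 for the transcription factor Creb3l2, 0.60 for Cebpb, 0.57 for the serine synthesis enzyme Phgdh, 0.08 for Cars and 0.05 for Hsp90ab1. On the lower side they were −0.19 for Manf, −0.14 for Ufm1, −0.14 for Eif2ak3, which codes for PERK, −0.23 for Vldlr, −0.88 for Aldh1l2, −0.18 for Iars and −0.29 for Hspe1. At day 7, values ran up to 0.59 for Hyou1 and down to −0.41 for the neutral amino acid transporter Slc1a4. At day 3, Cebpb had a log2 ratio of 1.36, Hspa1a, which shares reads with its near-identical copy Hspa1b, of 1.18 and Aldh1l2 of −1.71.

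A comparison of day 7 with day 3 was added after the values were seen. With operation as a covariate, 0 members passed, and 32 genes were higher (0.247%) and 45 lower (0.348%). Before adjustment, p was under 0.05 for 5 members, all with lower values at day 7. The same held for 2810 of 12933 genes, and 431 genes had such a p with higher values. The median over all genes was itself −0.18, and the members had a median of −0.35. Pdia4 had a difference of −0.70 ± 0.14 (adjusted p = 0.0838), which passed when mitochondrial and haemoglobin genes were left out of the scaling (−0.65, adjusted p = 0.0484). Psat1 had −0.69 ± 0.28, Calr −0.41 ± 0.15, Hspa5 −0.39 ± 0.12, Hsp90b1 −0.33 ± 0.12 and Ddit3 0.34 ± 0.15. The order of both day 3 sections above every day 7 section held for 5 members and for 38.9% of all genes.

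Spots were next grouped by the highest of 11 cell type scores that the study had transferred from single-nucleus data, and spots in which the score of one type was the highest are called dominant for it. The scores come from the same expression values, so they are not independent of the genes compared. CM1 is the main ventricular cardiomyocyte state and CM4 an immature, injury-related one. CM4-dominant spots numbered 57, 40, 58, 76 and 86 in sham day 3, MI day 3, sham day 7 and MI day 7 replicates 1 and 2, and CM1-dominant spots 244, 211, 383, 342 and 491. The 18 spots off the tissue were all CM1-dominant. So were all spots under 5000 UMIs of the MI sections, 19 in MI day 3 and 7 and 5 in MI day 7 replicates 1 and 2. With the section as a block, 0 of the 10 members passed the test between CM4-dominant and CM1-dominant spots. Of 13285 genes, 145 were higher in CM4 (1.09%) and 8 lower (0.0602%). At an unadjusted p under 0.05, 2 members were higher, as were 1220 of these genes. Differences of the members ran from 0.0038 to 0.59 with a median of 0.18, against 0.06 over all genes, and the lowest adjusted p was 0.26, for Calr (0.21 ± 0.08).

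Calr and Asns were higher in CM4-dominant than in CM1-dominant spots in 5 of 5 sections, without passing the test. Calr stood at 326, 188, 308, 248 and 242 CPM in CM4-dominant spots of sham days 3 and 7, MI day 3 and MI day 7 replicates 1 and 2, and at 304, 183, 240.4, 200.5 and 202 CPM in CM1-dominant spots of the same sections. Asns stood at 4.61, 3.71, 10.6, 3.64 and 7.59 CPM in CM4-dominant and 2.62, 3.07, 5.57, 2.57 and 3.55 CPM in CM1-dominant spots, in the same order. Hspa5 was higher in CM4-dominant spots in the 3 MI sections only, at 346 against 269, 278 against 244 and 231 against 224 CPM, whereas sham gave 303 against 361 and 213 against 244 CPM.

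Whether the CM4 difference itself changed with infarction was tested as the difference between MI and sham. No member passed, where 210 genes were higher (1.58%) and 20 lower (0.151%), and all genes had a median of 0.28. At an unadjusted p under 0.05, 6 members were higher, as were 2614 of 13285 genes. Psat1 came closest, at 1.496 ± 0.40 (adjusted p = 0.0545). Psat1 stood at 29.5, 15.5 and 24.8 CPM in CM4-dominant and 22.9, 6.02 and 14.3 CPM in CM1-dominant spots of MI day 3 and MI day 7 replicates 1 and 2, and at 5.43 against 19.02 and 14.9 against 12.8 CPM in sham days 3 and 7. Sham day 3 was the only section in which Psat1 was lower in CM4-dominant spots. Nupr1 had a difference of 1.54 ± 0.51 (adjusted p = 0.104), Ddit3 of 0.79 ± 0.22 (adjusted p = 0.0644) and Hspa5 of 0.42 ± 0.13 (adjusted p = 0.0892). Psat1 passed when spots under 5000 UMIs were left out (1.48, adjusted p = 0.0483), with summed values (1.48, adjusted p = 0.0386) and without sham day 7 (2.42, adjusted p = 0.00833), but without sham day 3 its difference was 0.58 (adjusted p = 0.44). Ddit3 passed among spots with a score of at least 0.5 (adjusted p = 0.0449). The blood markers moved with this comparison, at 8597 and 19947 CPM in CM4-dominant against 3837 and 6393 CPM in CM1-dominant spots of sham days 3 and 7, and 6537, 9639.7 and 10823 against 11048, 8623 and 9943 CPM in MI day 3 and MI day 7 replicates 1 and 2. Immune markers in CM4-dominant spots were at 103 and 95.9 CPM in sham and 1029.7 CPM, 162 CPM and 209 CPM in MI, against 60.4, 73.8, 288, 125 and 95.4 CPM in CM1-dominant spots, and the part of either was not tested. Of the 7 other lists, Ddit4, a stress-induced inhibitor of mTORC1, was the only gene past the test (0.87, adjusted p = 0.0447).

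Of the other ER genes, 2 of 19 folding genes were higher in CM4-dominant spots, namely Txndc5, a disulfide isomerase (0.58, adjusted p = 0.00613), and Ppib, a prolyl isomerase of collagen folding (0.33, adjusted p = 0.0457). None of the other 6 lists had a gene past the test. Their values farthest from 0 included 0.77 for the mitochondrial folate enzyme Mthfd2, 0.63 for Creb3l1, 0.46 for Eif2ak2 (PKR) and 0.39 for Os9. The summed level of the 7 fibroblast markers was also higher in CM4-dominant than in CM1-dominant spots, at 4643, 4384, 8478, 5451 and 7000.2 CPM against 2748, 3071, 3584, 3628 and 4215 CPM in sham days 3 and 7, MI day 3 and MI day 7 replicates 1 and 2. The part of these transcripts in the CM4 values was not tested.

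In fibroblast-dominant (FB) spots, 7 of 10 members were higher than in CM1-dominant spots, among them all 5 ER members. The background was wide here, as 3154 of 13405 genes were higher in FB spots (23.5%) and 458 lower (3.42%), with a median of 0.18 over all genes. Calr stood at 391 CPM in sham day 3, 251 CPM in sham day 7, 382 CPM in MI day 3, and 320.3 and 424 CPM in MI day 7 replicates 1 and 2, against 304, 183, 240.4, 200.5 and 202 CPM in CM1-dominant spots in the same order. Calr was higher in FB spots in 5 of 5 sections, by a log2 difference of 0.64 ± 0.09 (adjusted p = 0.000118). Hsp90b1 stood at 343, 237, 310.5, 298 and 348 CPM in FB and 266, 186, 232, 202 and 195 CPM in CM1-dominant spots, a difference of 0.51 ± 0.08 (adjusted p = 0.000339). Hspa5 stood at 423, 298, 441, 309 and 353 CPM against 361, 244, 269, 244 and 224 CPM, a difference of 0.45 ± 0.08 (adjusted p = 0.00128). Both chaperones were higher in FB spots of every section.

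Pdia4 stood at 36.1, 22.3, 35.5, 23.7 and 33.3 CPM in FB spots of sham days 3 and 7, MI day 3 and MI day 7 replicates 1 and 2, and at 26.3, 16.1, 22.3, 13.9 and 14.8 CPM in CM1-dominant spots. Its difference was 0.67 ± 0.12 (adjusted p = 0.000888), in 5 of 5 sections. Xbp1 had a difference of 0.42 ± 0.11 (adjusted p = 0.00867), from 51.9, 43.2, 45.4, 50.7 and 62.2 CPM against 50.3, 31.4, 36.7, 34.3 and 35.9 CPM. In the sham day 3 section the Xbp1 levels of both classes were close. The Xbp1 call held in 10 of 15 alternatives and was lost without MI day 7 replicate 1 (adjusted p = 0.0501) or replicate 2 (0.0552). Atf4 had 0.38 ± 0.09 (adjusted p = 0.00841), from 104, 118, 138, 123 and 138 CPM against 94.2, 115, 97.2, 77.3 and 93.1 CPM. The sham sections contributed least to the Atf4 difference.

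Nupr1 had the widest FB difference, 1.53 ± 0.25 (adjusted p = 0.000393). It stood at 4.59, 3.36, 26.4, 17.4 and 35.3 CPM in FB spots of sham days 3 and 7, MI day 3 and MI day 7 replicates 1 and 2, against 1.43, 2.13, 3.55, 6.49 and 7.57 CPM in CM1-dominant spots. In MI day 7 replicate 2, 1 FB spot reached 587 CPM, without which the FB mean of that section was 29.4 CPM. Ddit3, Asns and Psat1 did not pass, with differences of 0.22 ± 0.11, 0.56 ± 0.24 and 0.13 ± 0.16. The summed fibroblast markers, all 7 measured, stood at 6873 to 19082 CPM in FB against 2748 to 4215 CPM in CM1-dominant spots. As the scores come from the same expression values, this is no separate check of the class. The 7 immune markers moved as well, at 127 to 1747 against 60.4 to 288 CPM. The endocardial markers were higher in FB spots of every section as well, at 30.6 to 62.8 against 11.6 to 24.6 CPM, and the neutrophil markers stood at 465 against 55.7 CPM in MI day 3. The part of these in the members' levels was not tested. With median-of-ratios scaling, which set the all-gene median to −0.02, 4 members passed (Calr 0.43, Hsp90b1 0.29, Pdia4 0.46 and Nupr1 1.34), and without the section block 2 did.

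**Figure D2:**
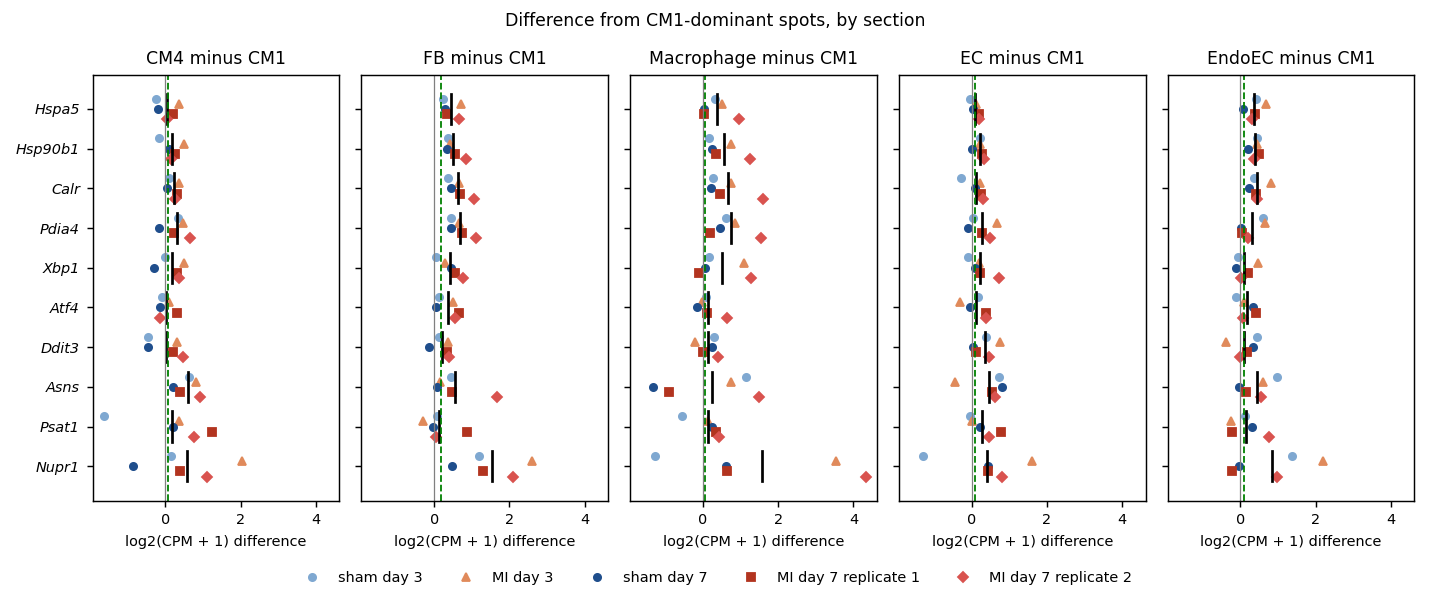
Difference in log2(mean CPM + 1) between spots dominant for another cell type and CM1-dominant spots (horizontal axes), with a panel for each cell type, a line for each member, a point for each section, a black bar at the mean of the 5 sections and a green dashed line at the median over all genes tested. In the FB panel Calr, Hsp90b1, Hspa5, Pdia4 and Nupr1 have all 5 sections above 0, and in the CM4 panel Hspa5 has 3 above and 2 below.

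Other listed genes of the secretory pathway were also higher in FB spots, beside a background of 23.5% of all genes, which is not a test of the lists. Of the 19 ER folding genes, 14 were higher and 0 lower, with a median of 0.57, led by Txndc5 (1.10), the collagen hydroxylase subunit P4hb (0.77) and Ppib (0.75). Of the 16 degradation and translocation genes, 12 were higher and 0 lower, led by the channel subunits Sec61b (0.80) and Sec61a1 (0.75) and by Serp1 (0.65). Of the 8 sensors, 5 were higher, including Creb3l1 (1.00), Eif2ak3 (0.67) and Creb3l2 (0.63). Of 17 further genes of the integrated stress response, 3 were higher (Gdf15 1.17, Cebpb 0.92 and Atf5 0.63) and 1 lower (Vldlr, −0.36). Of 15 amino acid genes, 8 were higher, led by Phgdh (0.93), the proline synthesis enzyme Pycr1 (0.86) and Aldh18a1 (0.78). Of 12 tRNA synthetases, 3 were higher (Tars 0.45, Sars 0.37 and Yars 0.31), a share close to that background, and the share of the 17 further genes was below it. Of 10 cytosolic and mitochondrial heat shock genes, 5 were higher, with Hspa1b at 0.71, Dnaja1 at 0.36 and Hsph1 at 0.35, and the mitochondrial chaperone Hspd1 was lower (−0.24).

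In endocardial (EndoEC) dominant spots, 3 members were higher than in CM1-dominant spots, where 9.63% of genes were higher and 2.51% lower. All 3 were ER chaperones. Calr stood at 393, 214, 420.4, 266 and 275 CPM in sham days 3 and 7, MI day 3 and MI day 7 replicates 1 and 2, a difference of 0.45 ± 0.07 from the CM1 levels given above (adjusted p = 3.43e-05). Hsp90b1 stood at 363, 215, 317, 287 and 250.3 CPM, a difference of 0.40 ± 0.07 (adjusted p = 9.07e-05), and Hspa5 at 477, 255, 428, 317 and 278 CPM, a difference of 0.37 ± 0.07 (adjusted p = 0.000531). Without the section block 0 members passed, and the comparison uses the CM1-dominant spots that the FB comparison also used. Of the other ER folding genes 11 of 19 were higher (Txndc5 0.92, Dnajc3 0.66 and Pdia3 0.60 first), of the degradation and translocation genes 6 of 16 (Sec61a1 0.65, Sec61b 0.57 and Ssr1 0.46 first) and of the sensors 4 of 8, while of the 16 further genes of the integrated stress response 0 were higher and Vldlr was lower (−0.35). The amino acid, tRNA synthetase and heat shock lists had 1 gene higher each, Slc7a1 (0.55), Tars (0.50) and Dnaja1 (0.32).

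Endothelial (EC) dominant spots gave 0 members past the test, with 2.29% of genes higher and 0.112% lower. An unadjusted p under 0.05 came with higher values in 2 members and in 1856 of 13338 genes, and with lower values in 237 genes. Among the members the lowest adjusted p was that of Hsp90b1 (0.0743), at 0.21 ± 0.06. Of the other genes, Ppib (0.24) and Sec61b (0.45) were higher. Macrophage-dominant spots also gave 0, with 0.173% of genes higher and 0.0% lower. Without adjustment, 5 members had a p under 0.05 and were higher, as were 1487 of 13323 genes. These spots were few, 26, 70, 20, 21 and 13 in sham days 3 and 7, MI day 3 and MI day 7 replicates 1 and 2. Their Nupr1 level spread from listed at 0 in sham day 3 and 3.74 CPM in sham day 7 to 51.4 CPM in MI day 3, 10.6 CPM in replicate 1 and 171 CPM in replicate 2, where 1 spot at 876 CPM raised the mean from 112 CPM. Beside these levels, the summed immune markers were 329 and 338 CPM in sham days 3 and 7, 9019 CPM in MI day 3, and 548 and 3418 CPM at MI day 7. The fibroblast markers summed to 4848 and 3977 CPM in sham, 15531 CPM in MI day 3, and 4501 and 24227 CPM at MI day 7, and the neutrophil and B or plasma cell markers were also highest in replicate 2 (321 and 121 CPM). The part of any of these in the Nupr1 level was not tested. In CM1-dominant spots the immune markers summed to 60.4 and 73.8 CPM in sham, 288 CPM in MI day 3, and 125 and 95.4 CPM at MI day 7.

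CM4-dominant spots were compared directly with FB spots. In this comparison 5 members were lower in CM4, where 6.34% of genes were lower and 0.347% higher and the median over all genes was −0.12. Hspa5 fell by 0.41 ± 0.08 on the log2 scale (adjusted p = 0.00151) and Calr by 0.43 ± 0.08 (adjusted p = 0.00177), each lower in CM4-dominant than in FB spots in 5 of 5 sections. Nupr1 was lower by −0.97 ± 0.23 (adjusted p = 0.0127), Atf4 by −0.38 ± 0.09 (adjusted p = 0.0141) and Hsp90b1 by −0.34 ± 0.09 (adjusted p = 0.0237). The Hsp90b1 call held in 8 of 15 alternatives and was lost without sham day 3 (adjusted p = 0.0913), sham day 7 (0.0795), MI day 7 replicate 1 (0.0623) or replicate 2 (0.163). Markers differed as well between CM4-dominant and FB spots, at 4384 to 8478 against 6873 to 19082 CPM for fibroblasts, 95.9 to 1029.7 against 127 to 1747 CPM for immune cells and 15.0 to 33.6 against 30.6 to 62.8 CPM for endocardium, and their part was not tested. Psat1 did not follow this order, since CM4-dominant spots had more Psat1 than FB spots in 4 of 5 sections, at 0.05 ± 0.26. Of the other lists, 8 of 19 folding genes were lower (Manf −0.54, Creld2 −0.53 and Pdia6 −0.53 first), 4 of 16 degradation and translocation genes (Sec61a1 −0.60, Sec61b −0.48 and Sel1l −0.41 first) and Dnaja1 (−0.36). Without MI day 7 replicate 1, or without replicate 2, 2 members passed, and with median-of-ratios scaling Hspa5 (−0.29) and Nupr1 (−0.89) did.

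Distance was then counted from each spot to the nearest CM4-dominant spot, in units of the spacing between neighbouring spots, with the CM4-dominant spots themselves left out. Near spots lay within 1 spacing and far spots beyond 4, each limit with a tolerance of 0.25 of a spacing. In the 3 MI sections, 6 of 10 members were higher near CM4-dominant spots. The background was 12.4% of 13096 genes higher and 0.283% lower, with a median of 0.25 over all genes. Nupr1 stood at 20.03, 13.2 and 19.6 CPM near and 3.904, 5.501 and 7.26 CPM far in MI day 3 and MI day 7 replicates 1 and 2. The Nupr1 difference was 1.51 ± 0.22 (adjusted p = 0.00197). Asns stood at 9.02, 4.06 and 13.03 CPM near and 3.897, 2.18 and 1.26 CPM far. The Asns difference was 1.44 ± 0.34 (adjusted p = 0.0244), and its values in the 3 MI sections had an SD of 1.04. Without MI day 7 replicate 2 the Asns difference was 0.85 (adjusted p = 0.132). The Asns values rest on few transcripts, sums of 24, 34 and 42 corrected counts near and 17, 21 and 7 far.

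Psat1 stood at 25.95, 10.2 and 20.6 CPM near and 19.03, 4.698 and 12.98 CPM far in MI day 3 and MI day 7 replicates 1 and 2, a difference of 0.68 ± 0.17 (adjusted p = 0.0264). Xbp1 stood at 48.2, 46.8 and 51.4 CPM near and 34.9, 34.1 and 33.7 CPM far, a difference of 0.50 ± 0.10 (adjusted p = 0.0126). Both Xbp1 and Psat1 were higher near in each MI section. Calr stood at 328, 251 and 293 CPM near against 249, 211 and 223 CPM far, a difference of 0.35 ± 0.08 (adjusted p = 0.0225). Hspa5 stood at 365, 285 and 274 against 267, 241 and 243 CPM, a difference of 0.29 ± 0.09 (adjusted p = 0.049), close to the all-gene median. The Hspa5 call held in 2 of 13 alternatives, with adjusted p from 0.041 to 0.951, and was lost without MI day 7 replicate 1 (adjusted p = 0.0938) and without replicate 2 (adjusted p = 0.141). The Psat1 call held in 7 of 13, with adjusted p from 0.00118 to 0.514, and those of Asns, Calr and Xbp1 in 9 of 13 each. Hsp90b1, Pdia4, Atf4 and Ddit3 had 0.22 to 0.43 and did not pass.

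Scaling bears on these near and far values. With median-of-ratios scaling the all-gene median moved from 0.25 to 0.00, Nupr1 alone passed (1.26, adjusted p = 0.00901), Asns had 1.22 (adjusted p = 0.0682), and Hspa5 (0.01) and Calr (0.07) were near 0, with Atf4 (−0.03) and Hsp90b1 (−0.05) below it. Without MI day 7 replicate 2, Nupr1 alone passed, and without the section block 0 members did. The make-up of the spots moved with distance as well. Summed fibroblast markers were 9026, 7068 and 9764 CPM near and 4382, 3847 and 5282 CPM far in MI day 3 and MI day 7 replicates 1 and 2, and FB-dominant spots were 20%, 30.3% and 28.9% of near and 0.787%, 1.81% and 4.15% of far spots. Summed immune markers were 2132, 175 and 247 CPM near and 251, 173 and 114 CPM far. The endocardial markers summed to 49.2, 30.4 and 32.2 CPM near and 35.1, 14.2 and 23.5 CPM far. Summed blood markers (haemoglobins and Alas2) were 6294, 7167 and 9685 CPM near and 12071, 8331 and 11802 CPM far, while in sham days 3 and 7 they were 4294 and 7816 CPM near and 3103 and 5331 CPM far. Mitochondrial transcripts were 9.20%, 22.0% and 12.96% of near and 17.5%, 29.7% and 18.8% of far values. The part of these in the members' differences was not tested, beyond the comparison within CM1-dominant spots that follows.

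**Figure D3:**
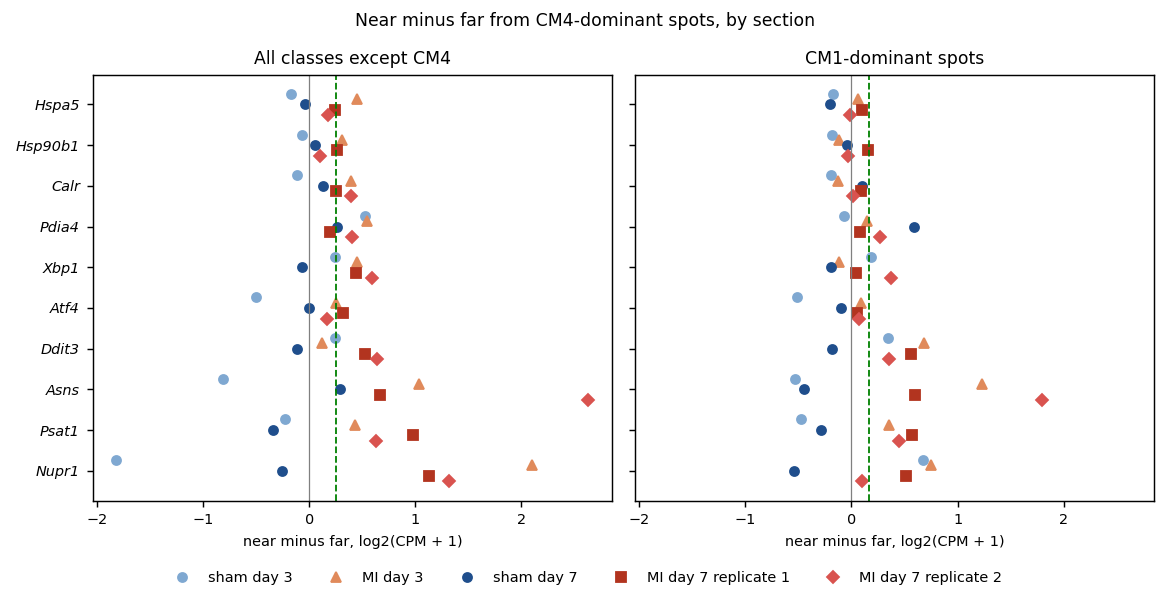
Near minus far difference in log2(mean CPM + 1) (horizontal axes) of the 10 members, a point for each section, with all spots other than CM4-dominant ones in the left panel and CM1-dominant spots in the right panel, and a green dashed line at the median over all genes tested in MI. In the left panel Nupr1 has the 3 MI sections above 0, and its sham day 3 point rests on 4 UMIs near and 9 far.

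Other genes of these pathways were also higher near CM4-dominant spots, where 12.4% of all genes were higher and 0.283% lower, and none was lower in the 7 lists. Of 19 folding genes 9 were higher (Txndc5 0.70, Creld2 0.60 and P4hb 0.50 first), of 16 degradation and translocation genes 5 (Edem1 0.57, Sec61a1 0.54 and Sec61b 0.52 first) and of 8 sensors 3 (Creb3l1 0.64, Atf6b 0.56 and Creb3l2 0.41). Of the 17 further genes of the integrated stress response 5 were higher, led by the stress cytokine Gdf15 (1.47), the transcription factor Atf3 (1.02) and Eif2ak2 (0.90). Of 15 amino acid genes 6 were higher, led by Mthfd2 (1.22), Pycr1 (0.93) and Aldh18a1 (0.68). The tRNA synthetase Sars (0.42) and the cytosolic chaperone Hsp90aa1 (0.33) were the only genes higher in their lists, shares of 12 and 10 genes below that of all genes. With median-of-ratios scaling, 232 genes were higher and 286 lower over all genes.

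By ring of distance, Nupr1 in MI day 3 was at 20.03, 20.8, 5.499, 2.28 and 3.904 CPM within 1, 2, 3 and 4 spacings and beyond 4. In MI day 7 replicate 1 Nupr1 was at 13.2, 8.84, 8.12, 8.91 and 5.501 CPM, and in replicate 2 at 19.6, 34.1, 27.2, 10.03 and 7.26 CPM. The first ring was thus the highest only in replicate 1, and the second ring was the highest in the other MI sections. Asns in the same rings was at 9.02, 7.45, 8.299, 2.16 and 3.897 CPM in MI day 3, at 4.06, 3.49, 2.303, 2.28 and 2.18 CPM in MI day 7 replicate 1 and at 13.03, 6.53, 4.59, 3.32 and 1.26 CPM in replicate 2. In both replicates Asns went down from ring to ring, by less in replicate 1. Hspa5 in MI day 3 went from 365 to 337, 326, 274 and 267 CPM. In replicate 1 Hspa5 went from 285 CPM in the first ring to 241 CPM in the last, and in replicate 2 from 274 to 243 CPM.

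**Figure D4:**
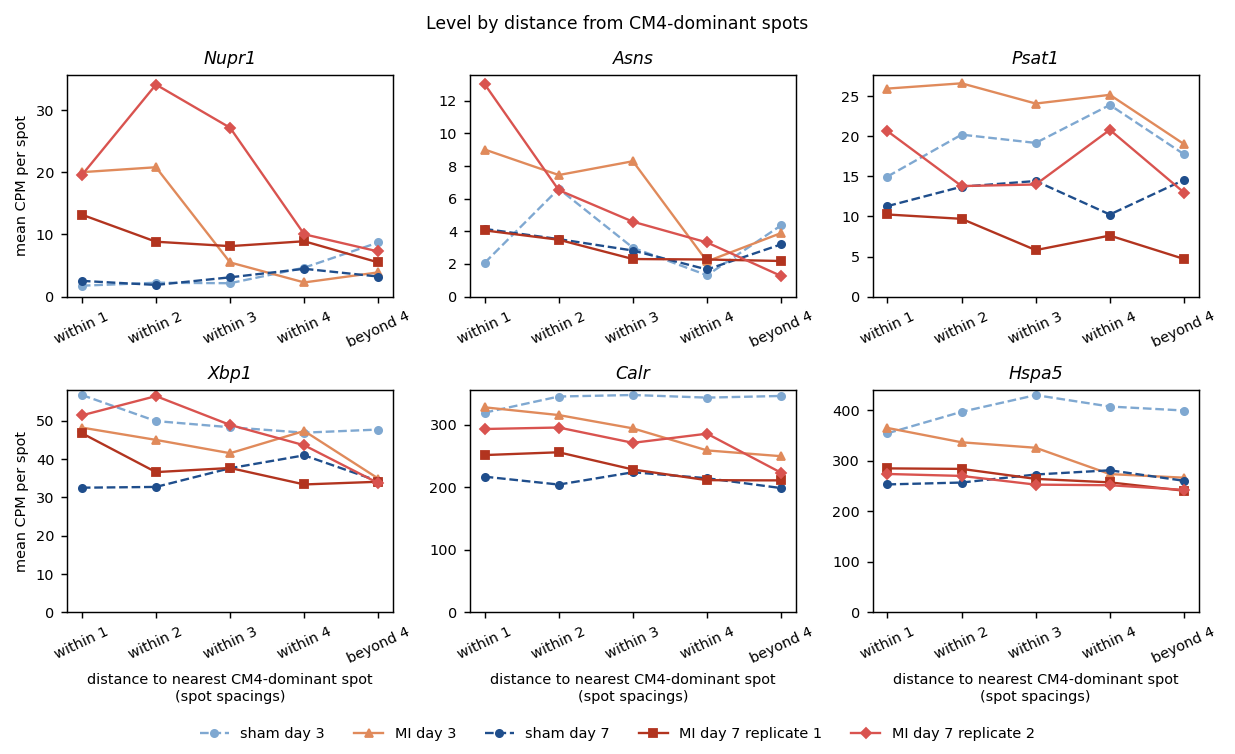
Mean CPM per spot (vertical axes, linear from 0) of Nupr1, Asns, Psat1, Xbp1, Calr and Hspa5, the members past the near and far test, in 5 rings of distance from CM4-dominant spots (horizontal axes, within 1, 2, 3 and 4 spot spacings and beyond 4), with a solid line for each MI and a dashed line for each sham section. In MI day 3 the Hspa5 line goes from 365 CPM in the first ring to 267 CPM in the last, while in sham day 7 it goes from 253 to 261 CPM.

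The same comparison was repeated within CM1-dominant spots of the MI sections, in which the leading score was the same near and far. Near spots here lay within 2 spacings (42, 110 and 156 spots in MI day 3 and MI day 7 replicates 1 and 2) and far spots beyond 4 (108, 128 and 210 spots). Asns was the only member past the test, where 0.657% of genes were higher and 0.17% lower. Asns stood at 10.8, 3.697 and 6.33 CPM near and 4.03, 2.102 and 1.12 CPM far, a difference of 1.21 ± 0.28 (adjusted p = 0.0372). It was higher near in 3 of 3 MI sections. Without MI day 7 replicate 2 the Asns difference was 0.91 (adjusted p = 0.226), and it missed the threshold with median-of-ratios scaling (adjusted p = 0.0664), with scaling without mitochondrial and haemoglobin genes (adjusted p = 0.0638) and with a pseudocount of 0.1 (adjusted p = 0.0525) or 5 (adjusted p = 0.0562).

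Ddit3 stood at 33.8, 30.7 and 33.2 CPM near and 20.7, 20.6 and 25.8 CPM far within CM1-dominant spots of MI day 3 and MI day 7 replicates 1 and 2. Its difference of 0.53 ± 0.13 had an adjusted p of 0.0515. That p was 0.0242 without spots under 5000 UMIs, 0.0335 with far spots taken beyond 3 spacings and 0.0292 without MI day 3. The ER chaperones were close to level here, with 0.05 ± 0.06 for Hspa5, 0.0025 ± 0.07 for Hsp90b1, −0.0084 ± 0.07 for Calr and 0.16 ± 0.16 for Pdia4, where the all-gene median was 0.16. Nupr1 had 0.45 ± 0.24 (adjusted p = 0.294) and Psat1 0.46 ± 0.18 (adjusted p = 0.182). Of the 7 lists none had a gene past the test, and among their genes with a mean of at least 5 CPM Mthfd2 (0.81, adjusted p = 0.0892) and Atf3 (0.72, adjusted p = 0.154) had the values farthest from 0. Fibroblast markers summed to 3585, 3798 and 4573 CPM near and 3987, 3482 and 4373 CPM far in these spots, and immune markers to 430.4, 116 and 118 CPM near and 242, 132 and 81.5 CPM far. The make-up of these spots still moved with distance, as the mean CM4 score was 12%, 5.50% and 10.6% near and 1.22%, 1.10% and 2.11% far, and the mean CM5 score 8.98%, 9.91% and 9.24% near and 3.19%, 2.19% and 6.98% far. Mitochondrial transcripts were 14.7%, 26.2% and 14.9% of near and 18.2%, 31.1% and 19.7% of far values, and blood markers summed to 6383, 8076 and 8948 CPM near and 12334, 8807 and 11364 CPM far. The part of these in the Asns difference was not tested.

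The near and far difference was also taken in sham, where CM4-dominant spots were present without an infarct. The difference between MI and sham in the near minus far value was past the test for Nupr1 only, at 2.55 ± 0.45 (adjusted p = 0.0103), where 0.931% of genes were higher and 0.128% lower and the median was 0.24. Nupr1 in sham stood at 1.75 CPM near against 8.71 CPM far at day 3, and at 2.53 against 3.23 CPM at day 7. The sham day 3 values rest on 4 UMIs near and 9 far, and 1 far spot of 4581 UMIs, in which the epicardial score was the highest, held 655 CPM, without which the far value was 2.62 CPM. Without the sham day 3 section the Nupr1 difference was 1.77 (adjusted p = 0.607), without spots under 5000 UMIs it was 1.78 (adjusted p = 0.0539), and with far spots beyond 5 spacings it was 1.94 (adjusted p = 0.113). Of the other genes in the lists only Erp29, an ER protein of the isomerase family, passed (0.57, adjusted p = 0.0489).

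Spatial clustering was described with Moran's I over neighbouring spots, which is near 0 for a scattered gene. The highest values were in MI day 3, at 0.361 for Hspa5 and 0.306 for Calr, against 0.063 and 0.053 in sham day 3 and 0.020 and 0.041 in sham day 7. In MI day 7 replicates 1 and 2, Hspa5 had 0.111 and 0.024 and Calr 0.187 and 0.178. Nupr1 had 0.226 in MI day 3, 0.056 and 0.114 in MI day 7 replicates 1 and 2, and 0.007 and 0.042 in sham. MI day 3 was therefore the most clustered section for each of these genes. Hsp90b1 and Pdia4 had lower values there, 0.109 and 0.067. Depth differs between the sections and its part in Moran's I was not tested.

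**Figure D5:**
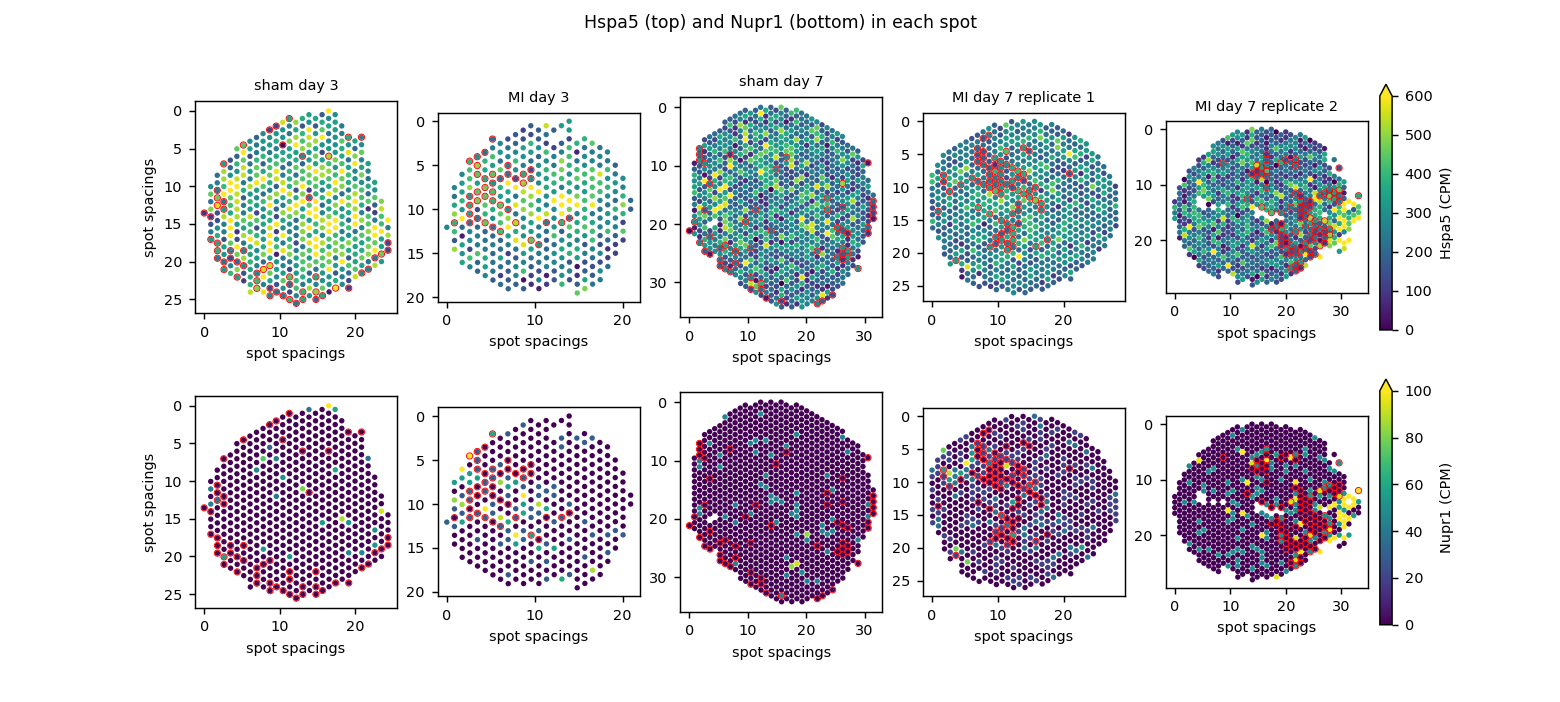
Maps of Hspa5 (top) and Nupr1 (bottom) in the 5 sections, each point a spot placed in units of spot spacing and coloured by CPM, with values above the top of each colour bar drawn in its last colour, red rings around CM4-dominant spots, and spots off the tissue not drawn. High Hspa5 and Nupr1 spots of MI day 3 (Moran's I 0.361 and 0.226) lie in patches, while those of the sham sections are scattered.

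Across the 37 profiles of section by dominant class with at least 10 spots, the ER chaperones varied together. These correlations are descriptions, since profiles of a section share its library and depth. Pearson's r of log2(CPM + 1) was 0.93 for Hsp90b1 with Calr, 0.88 for Hspa5 with Hsp90b1 and 0.86 for Hspa5 with Calr. Pdia4 had r of 0.81 to 0.87 with these chaperones and Xbp1 0.70 to 0.87, while Atf4 had 0.25 to 0.36 with the 5 ER members. Within sections, spot by spot, Spearman's rho of Hspa5 with Calr was 0.145 and 0.163 in sham days 3 and 7, 0.397 in MI day 3, and 0.306 and 0.207 in MI day 7 replicates 1 and 2. Among 10387 other genes with a mean of at least 5 CPM, those most like Hspa5 over the 37 profiles included Bzw1 (r = 0.87), Ptp4a2 (0.86), Hnrnpa3 (0.86) and the ER isomerase Pdia6 (0.86). Those most like Asns were Gss (0.78), Ecd (0.78), Mbd1 (0.77), Mgat5 (0.77) and Rhod (0.74).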

How the data were processed

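RNA was captured on Visium slides from 5 heart sections. According to the methods and per the labels, the authors aligned reads to GRCm38 (mm10) with Space Ranger and processed spots in Seurat with sctransform. The deposited table of sham day 3 held raw UMI counts. The other 4 deposited tables held a score, sctransform counts which the authors' model brought near a common depth within each section as whole numbers, with genes seen in at least 5 spots. The authors' deposited metadata gave raw UMI counts per spot, positions in image pixels and 11 label transfer scores per spot, each a fraction from 0 to 1.

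Count tests were not used, since these 4 tables are depth-corrected. Each spot was scaled to 1000000 over the 13711 shared genes (99.8 to 99.9% of values) and averaged per section and class, with at least 10 spots per average. Models were fitted to log2(mean CPM + 1) with limma 3.58.1 (R 4.3.3, trended variance), over genes at 1 CPM or more in at least 2 averages, with the section as a block between classes or distances. On this scale, changes of low genes come out too small. Each ± is the standard error of limma, whose variance is moderated toward that of other genes. It can thus be smaller than the spread between sections of the gene itself. Two-sided p-values were adjusted by the Benjamini-Hochberg method over all genes, with a threshold of 0.05. Tables were read in Python 3.11.15 with pandas 2.3.3 and scipy 1.17.1, and figures drawn with matplotlib 3.10.9. The steps were tested on simulated data, with a set spread between sections. For MI minus sham across days, 5 of 67 changes of 1 on the log2 scale were called. For near minus far in MI 19 of 67 were called, and for CM4 minus CM1 58 of 67. A member that did not pass may thus still differ.

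The members and lists were chosen with earlier results of these data known. All members were named in every comparison, and from each list up to 3 genes per direction with the largest differences past the threshold. Where none passed, the 1 gene per direction with the largest difference at a mean of 5 CPM or more could be named. For macrophage and EC spots and for the tests of MI against sham differences, only genes past the threshold were named. The comparison of day 7 with day 3 and the alternative without spots under 5000 UMIs were chosen after seeing the data. A gene that the rule of likeness to Hspa5 would name is not reported here.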

Additional observations from a re-analysis of the deposited data

Results flagged for a closer look

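The Nupr1 difference between near and far spots was itself different between MI and sham, by 2.55 on the log2 scale (limma, adjusted p = 0.0103). The sham day 3 part of this value rests on few UMIs, as given above, and without that section the difference was 1.77.

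In some other comparisons every MI section moved one way and every sham section the other, and these differences were not tested. Xbp1 in endocardial minus CM1-dominant spots had a mean of 0.23 in MI and −0.10 in sham, a sign pattern that 4.46% of 13328 genes had in that comparison. Within CM1-dominant spots, near minus far, Atf4 had 0.071 in MI and −0.31 in sham. Asns had 1.21 in MI and −0.49 in sham in that comparison, and Psat1 0.46 and −0.38, where 11.3% of 13198 genes had this pattern.

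MI minus sham had opposite signs at day 3 and in both MI sections of day 7 for 5 of the 10 members and for 24.3% of the 12933 genes. For Hsp90b1 the value was −0.12 at day 3 and 0.17 at day 7, for Calr −0.23 and 0.24, and for Xbp1 −0.23 and 0.26. Atf4 had 0.064 at day 3 and −0.27 at day 7, and Ddit3 0.013 and −0.20. The day 3 values of Atf4 and Ddit3 were near 0 and turned negative with median-of-ratios scaling. With 1 section per group at day 3 these differences were not tested.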

How the results depend on the processing

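Of 24 member differences that passed a test, 0 changed sign under any alternative, while 45 of the other 116 did, among which 10 are day 3 ratios with no test. The number of members past the threshold changed as follows. At day 7, MI minus sham went from 1 to 0 with scaling without mitochondrial and haemoglobin genes and to 0 with median-of-ratios scaling. At day 3 it went from 1 to 0 with a pseudocount of 5. FB minus CM1 went from 7 to 4 with median-of-ratios scaling. CM4 minus FB went from 5 to 3 without mitochondrial and haemoglobin genes and to 2 with median-of-ratios scaling. The CM4 minus CM1 difference between MI and sham went from 0 to 1 with summed values, without spots under 5000 UMIs, and with a score of at least 0.5. Near minus far in MI went from 6 to 1 under both scalings. Within CM1-dominant spots it went from 1 to 0 under both scalings and with a pseudocount of 0.1 or 5, and to 2 without spots under 5000 UMIs or with far spots beyond 3 spacings. The near minus far difference between MI and sham went from 1 to 0 without spots under 5000 UMIs and with far spots beyond 5 spacings. Leaving out 1 section at a time gave 0 to 1 for MI minus sham across days, 5 to 8 for FB, 3 to 4 for EndoEC and 2 to 5 for CM4 minus FB. It gave 0 to 1 for the CM4 minus CM1 difference, 1 to 8 for near minus far, 0 to 2 within CM1-dominant spots and 0 to 2 for the near minus far difference. Where no value shows it, the cause was not tested.

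Without the section as replicate block, FB minus CM1 gave 2 members, and EndoEC minus CM1, CM4 minus FB, near minus far and near minus far within CM1-dominant spots gave 0 each. No paired analysis was possible because the MI and sham groups compared share fewer than 2 replicate numbers, and a shared number marks different hearts. At day 7, leaving out either MI section leaves no spread to test, and Nupr1 then stood at 2.28 and 1.39.

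Counts over all genes moved too. Leaving out sham day 3, MI day 3, sham day 7 or MI day 7 replicate 1 or 2 gave 24 higher and 5 lower, 26 and 8, 319 and 47, 81 and 6, and 0 and 0 genes for MI minus sham across days, in place of 1 and 0. At day 7, 24 and 6 became 0 and 0 under both scalings and 62 and 25 with summed values. With median-of-ratios scaling, near minus far gave 232 higher and 286 lower genes in place of 1623 and 37, FB minus CM1 1446 and 1517 in place of 3154 and 458, and EndoEC minus CM1 748 and 835 in place of 1283 and 334. CM4 minus CM1 gave 119 and 55 in place of 145 and 8, EC minus CM1 58 and 110 in place of 305 and 15, and CM4 minus FB 266 and 440 in place of 47 and 858. The CM4 minus CM1 difference gave 20 and 34 in place of 210 and 20, the near minus far difference 27 and 21 in place of 124 and 17, near minus far within CM1-dominant spots 17 and 60 in place of 85 and 22, and day 7 minus day 3 127 and 58 in place of 32 and 45. Group sizes of 1 or 2 sections limit every comparison of MI with sham, and values of Asns and Nupr1 rest on few transcripts.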

Other observations

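In MI day 7 replicate 2, 15 spots had the epicardial score as their highest, a class that reached 10 spots in no other section. The ER members stood high in them, with Calr at 1108 CPM, Hsp90b1 at 523 CPM, Hspa5 at 517 CPM, Xbp1 at 176 CPM and Pdia4 at 96.9 CPM, against 424, 348, 353, 62.2 and 33.3 CPM in the FB spots of that section. Nupr1 stood at 131 CPM and Psat1 at 54.0 CPM there, and 1 of these spots held Nupr1 at 888 CPM. With 1 section these values have no replicate check.

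CM5-dominant spots, an injury-related cardiomyocyte state, numbered 15 in MI day 3, 19 in sham day 7 and 18 and 13 in MI day 7 replicates 1 and 2. Hspa5 stood at 332, 311, 290.1 and 229 CPM in them. Pdia4 stood at 44.1 CPM in MI day 3 and 7.12 CPM in MI day 7 replicate 2.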
